A study of Mus musculus with 6 samples.

Results

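Zinc finger genes of the mouse Zfp-numbered series were examined in RNA sequencing libraries of infarcted mouse myocardium. The members were the rows whose symbol is Zfp followed by a digit, without the Zfp36 family and pseudogenes, and with a mean value of at least 3 over the 6 libraries. Of 350 such rows, 266 reached that level, and 84 lay below it and were left out. The members were thus chosen by their mean level, which is given as a description, whereas the difference between the groups was not part of that rule. The set itself was, however, chosen with earlier results of these data known. The libraries form 2 groups of 3. The first was labelled Itih5 knockdown and the second wild type, and both came from heart muscle taken 7 days after the left anterior descending coronary artery was tied off. Itih5 encodes a secreted heavy chain that binds hyaluronan, and the study's title concerns its part in the exchange between fibroblasts and macrophages after infarction. The labels name poly(A) selection and 2 library kits, from Vazyme and NEBNext, without saying which library used which. They do not give the knockdown method, the strain, age or sex of the mice, or whether each library came from its own animal. The p-values therefore reflect the spread from library to library, part of which may be technical.

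Zfp-numbered genes encode proteins with zinc fingers, mostly of the C2H2 kind, in which a pair of cysteines and a pair of histidines hold a zinc ion. Fingers usually stand in tandem arrays that read DNA, and some bind RNA or other proteins. Many of the proteins carry a KRAB box near their start, which recruits the co-repressor TRIM28 and through it the histone methyltransferase SETDB1. KRAB zinc finger genes multiplied by local duplication, lie in clusters, and include silencers of retroelements and guardians of imprinted genes. Others in the series are general transcription factors, RNA-binding proteins or ubiquitin ligases.

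The repeated finger, the element that these genes share, is shown as coding DNA for 6 of the KRAB members with the smallest p-values among those higher in the libraries labelled knockdown, for Zfp120, which was lower there, and for Gm15446, the closest relative of Zfp932. Each line gives the first complete unit of 84 bases, 1 finger and the linker to the next, except that Gm15446 is shown by the unit most like that of Zfp932. Sequences are from GENCODE M21 transcripts (mm10), in the direction of the gene, and capitals mark the codons of the paired cysteines and histidines.
Zfp950: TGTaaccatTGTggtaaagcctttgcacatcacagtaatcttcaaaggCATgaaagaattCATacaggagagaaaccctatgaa
Zfp120: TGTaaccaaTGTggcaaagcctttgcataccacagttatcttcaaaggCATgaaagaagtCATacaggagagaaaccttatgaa
Zfp182: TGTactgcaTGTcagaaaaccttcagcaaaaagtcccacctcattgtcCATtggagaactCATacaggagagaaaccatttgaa
Zfp945: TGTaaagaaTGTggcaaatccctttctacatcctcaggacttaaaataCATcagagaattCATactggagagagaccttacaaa
Zfp948: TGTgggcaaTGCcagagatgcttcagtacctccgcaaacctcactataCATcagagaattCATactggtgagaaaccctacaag
Zfp160: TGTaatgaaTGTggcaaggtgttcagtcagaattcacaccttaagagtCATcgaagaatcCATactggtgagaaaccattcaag
Zfp932: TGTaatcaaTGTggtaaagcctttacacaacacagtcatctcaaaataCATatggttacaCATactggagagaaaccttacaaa
Gm15446: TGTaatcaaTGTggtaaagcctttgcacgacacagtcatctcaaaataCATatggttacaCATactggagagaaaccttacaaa

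Over these 84 bases the unit of Zfp120 was 91.7% identical to that of Zfp950, and that of Zfp948 was 55.95% identical to it. The units of Zfp932 and Gm15446 differed at 2 bases. Such repeats bear on the measurement, because a read that falls inside one can belong to several genes. Of the 264 members whose coding sequence could be translated from the annotation, 144 shared no 50-base stretch of it with a transcript of another gene. At least 20% of these coding stretches were shared in 44 members. The untranslated parts of the members were not searched in this way. Zfp932 shared 55.7%, mostly with Gm15446, so the values of that pair may be mixed. In 86 members another annotated gene lay on the opposite strand over some of the same bases, Grk5 in the case of Zfp950, and the sources used here do not say whether reads were counted by strand.

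Each library gives a value per gene on a scale close to TPM, which is corrected for gene length, and the depth in reads is unknown. True TPM adds up to the same total in every library, whereas these columns summed to between 901563 (wild-type replicate 3) and 1159657 (labelled knockdown replicate 1). Divided by the rounding step described next, they summed to between 996821 and 1013977. Low values are rounded to whole steps, and each library has its own step size. It was 1.16, 0.959 and 0.998 in the libraries labelled knockdown replicates 1, 2 and 3, against 0.974, 0.932 and 0.889 in wild-type replicates 1, 2 and 3. A member with a value of 5 is therefore known to about 1 part in 5. The mitochondrially encoded share of the total was 32.6%, 14.8% and 20.2% in the libraries labelled knockdown, against 13.8%, 11.5% and 10.9% in wild type. Itih5 itself was at 18.4, 10.5 and 19.96 in the libraries labelled knockdown, against 9.73, 13.1 and 17.2 in wild type. Itih5 transcript was thus not lower under the knockdown label (log2 difference 0.26, 95% interval -0.39 to 0.90, limma adjusted p = 0.645; exact two-sided permutation p = 0.5, where 0.1 is the smallest that 3 against 3 libraries allow), and every direction below refers to the labels.

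The members were expressed at low to moderate levels, with a median of 8.63 between 3.11 and 95.2. The lowest were Zfp583, Zfp729a and Zfp72, at means of 3.11, 3.12 and 3.12, and Zfp7 tied with Zfp72 through the same values in all 6 libraries. Just outside the limit stood Zfp438, Zfp202 and Zfp759 at means of 2.96, 2.96 and 2.95. By level, 153 members lay at 3 to under 10, 102 at 10 to under 30 and 11 at 30 or more. The KRAB pattern matched 141 of the 264 translated proteins, and the median number of C2H2 fingers was 12 with the pattern and 7 without it. The longest array had 30 fingers (Zfp236). KRAB members had lower levels, with a median of 7.71, against 11.2 for members without the pattern, which misses divergent KRAB boxes.

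On the deposited scale, Zfp genes were more often higher than lower in the libraries labelled knockdown, by small amounts. A higher mean was found for 199 of the 266 members (74.8%) and a lower one for 67. The share with a higher mean was 50.8% of all 14025 tested genes and 49.5% of those with a level of at least 3. The median log2 difference, labelled knockdown minus wild type on the log2(value + 1) scale, was 0.12 for the members and 0.00 for all tested genes, and the middle 50% of members lay between 0.00 and 0.25. Their average deviation from each gene's mean over the 6 libraries was 0.08, 0.07 and 0.06 in the libraries labelled knockdown, against -0.08, -0.03 and -0.10 in wild type. On the deposited scale all 3 libraries labelled knockdown thus lay above all 3 wild-type libraries, with wild-type replicate 2 nearest to them. The average deviation over all tested genes was 0.00, -0.02 and 0.04 in the libraries labelled knockdown, against -0.01, -0.01 and 0.00 in wild type. As a share of each column sum, the members made up 0.295%, 0.349% and 0.336% in the libraries labelled knockdown replicates 1, 2 and 3. In wild type they made up 0.310%, 0.334% and 0.330%. By that share the groups overlapped, and the library labelled knockdown replicate 1 was lowest.

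**Figure D1:**
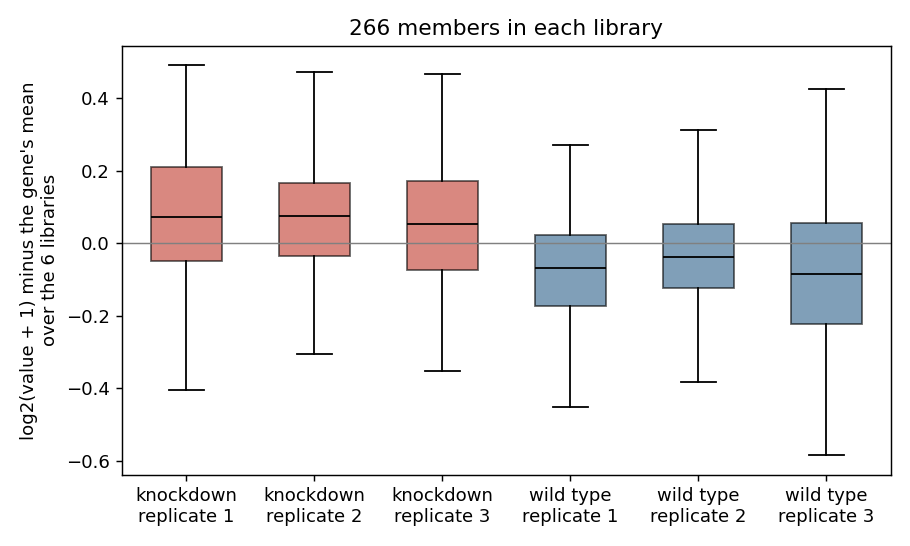
Deviation of the 266 members from their own mean over the 6 libraries, on the log2(value + 1) scale, by library. Boxes hold the middle 50% of members, the line is the median, and whiskers reach at most 1.5 times the box length; the medians are 0.07, 0.08 and 0.05 in the libraries labelled knockdown, against -0.07, -0.04 and -0.08 in wild type.

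No single member passed the test. With limma and Benjamini-Hochberg adjustment over all 14025 genes, 0 members were called at 0.05, as were 0.0% of all tested genes, and the smallest adjusted p, 0.296, was shared by 20 members. At an unadjusted p under 0.05, 52 members (19.5%) were higher, where 8.29% of all tested genes were, and 2 (0.752%) were lower, where 6.55% were. The higher count was 27 (10.2%) without wild-type replicate 1 and 28 (10.5%) without wild-type replicate 3, where 4.70% and 4.56% of all genes were higher, and it was 25 (9.40%, against 5.30%) with the heart muscle covariate described below. The groups did not overlap for 73 members that were higher (27.4%, against 12.6% of all tested genes) and 6 that were lower (2.26%, against 9.88%). The gap between the groups exceeded the largest rounding step for 29 members that were higher and 0 that were lower, or 10.9% and 0% of them, against 4.55% and 5.25% of all tested genes.

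**Figure D2:**
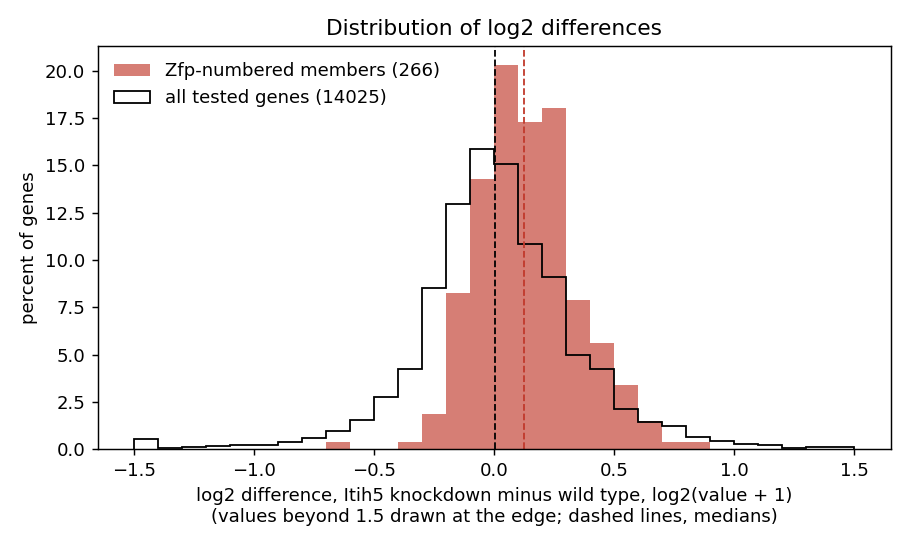
Distribution of the log2 difference (labelled knockdown minus wild type, log2(value + 1)) for the 266 members, filled, and for all 14025 tested genes, outlined, as percent of genes per bin. The member distribution is narrower and lies to the right, with its median at 0.12 (dashed) against 0.00 for all genes.

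The size and balance of the members' differences depended on the scale on which libraries were compared. When each library was divided by its rounding step, an alternative chosen after the values were seen, the median of the members was -0.01 and that of all tested genes -0.13. The distance between them was then 0.13, against 0.12 on the deposited scale. After the division 125 of the 266 members had a higher mean, against 199 on the deposited scale. On the step scale 14 members were higher and 9 lower at an unadjusted p under 0.05, or 5.26% and 3.38%, against 2.83% and 9.24% of all genes. With the quotients not rounded to whole steps, the groups were without overlap for 18 members that were higher and 23 that were lower. These were 6.77% and 8.65%, against 3.49% and 20.6% of all genes. Rounded to whole steps, 18 members were higher and 9 lower, or 6.77% and 3.38%, against 2.91% and 15.0% of all genes. Which direction held more members without overlap thus depended on the rounding. The distance of the members' median from that of other genes was thus as large on the step scale, whereas a median above zero was not kept.

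Marker levels of several cell types varied between the same libraries, and of the 8 lists the macrophage and B cell sums did not overlap between the groups. Taken singly, 4 of 6 macrophage and 1 of 6 B cell markers were lower without overlap, where 9.88% of all tested genes were. Higher without overlap were 2 of 6 heart muscle markers, where 12.6% of all tested genes were. No tested marker of the other lists was without overlap. The 6 heart muscle markers were all in the table, and 6 of 6 had a higher mean. Their summed level ran from 3632 to 9348 in the libraries labelled knockdown, against 3899 to 4905 in wild type. All 6 macrophage markers had a lower mean, with sums from 2778 to 5702 in the libraries labelled knockdown, against 6075 to 8285 in wild type. The fibroblast sums were 9715 to 14978 in the libraries labelled knockdown, against 13203 to 15433 in wild type, and the B cell sums 62.5 to 527, against 677 to 1338. Endothelial sums were 547 to 1271 in the libraries labelled knockdown, against 619 to 645 in wild type, those of T cells 22.98 to 63.9, against 35.99 to 52.99, those of adipocytes 229.9 to 2011, against 832 to 1706, and those of mesothelium 17.2 to 147.7, against 67.2 to 101.6. Markers listed at 0 in some library were Plin1 and Cidec of the adipocyte list and Muc16 of the mesothelial list. Lower means were found for 6 of 6 B cell, 6 of 6 T cell, 5 of 6 adipocyte and 3 of 6 fibroblast markers, and higher means for 6 of 6 endothelial markers. Of the 6 mesothelial markers 5 were tested, and all 5 had a lower mean. In bulk tissue, fewer cells of a type and less RNA per cell cannot be told apart. When the mean heart muscle marker level was added to the fit as a covariate, also after the values were seen, the median of the members was 0.12 and 25 were higher at an unadjusted p under 0.05 (9.40%, against 5.30% of all genes). The part of the other cell types in the members' levels was not tested. The nuclear long non-coding RNAs Neat1 and Malat1, singled out after their values were seen, were higher in the same libraries. Neat1 was at 118, 100.3 and 107 in the libraries labelled knockdown, against 56.5, 67.5 and 32.6 in wild type (log2 difference 1.10, SE 0.25, limma adjusted p = 0.296), and Malat1 was at 175, 139.7 and 167 in the libraries labelled knockdown, against 95.6, 132 and 80.5 in wild type. Whether these RNAs and the members are linked was not tested.

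Among the members with higher values, Zfp950 had the smallest p. This KRAB gene with 17 finger matches lies on the minus strand of chromosome 19 at 61053840 to 61140840 (mm10). It was at 27.6, 26.1 and 26.9 in the libraries labelled knockdown, against 14.6, 18.7 and 13.2 in wild type. The means were 26.9 ± 0.756 in the libraries labelled knockdown and 15.5 ± 2.86 in wild type (SD, n = 3 each; log2 difference 0.77, SE 0.13, limma adjusted p = 0.296). The groups did not overlap, and the spread was wider in wild type, where replicate 2 was highest.

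Zfp182, a KRAB gene on the X chromosome, was at 13.8, 14.5 and 15.97 in the libraries labelled knockdown, against 7.77, 10.3 and 8.88 in wild type (log2 difference 0.66, SE 0.12). Zfp715, on chromosome 7 with 18 finger matches, had the largest log2 difference of all members, 0.82 (SE 0.19). It was at 36.5, 23.1 and 21.96 in the libraries labelled knockdown, against 14.6, 14.9 and 14.1 in wild type. Its wild-type values were tight, and the library labelled knockdown replicate 1 stood above the other 2 of its group. Zfp329, the single gene without a KRAB match among the 10 higher members with the smallest p, was at 9.17, 7.71 and 8.98 in the libraries labelled knockdown, against 5.85, 5.59 and 5.32 in wild type. In whole rounding steps that is 8, 8 and 9 in the libraries labelled knockdown, against 6, 6 and 6 in wild type.

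Of these 10 genes, 5 lie on chromosome 17. Zfp948 was at 31.0, 27.0 and 26.9 in the libraries labelled knockdown, against 18.5, 21.6 and 16.9 in wild type (log2 difference 0.56, SE 0.12). Zfp160 was at 17.3, 17.4 and 15.97 in the libraries labelled knockdown, against 11.7, 13.1 and 12.5 in wild type (log2 difference 0.41, SE 0.09). Zfp945 had a log2 difference of 0.54 (SE 0.11), Zfp760 of 0.43 (SE 0.10) and Zfp101 of 0.53 (SE 0.13), all without overlap between the groups. Zfp101 stood at 7, 8 and 7 rounding steps in the libraries labelled knockdown, against 5, 6 and 5 in wild type, so that its whole difference was about 2 steps. All 10 had a limma adjusted p of 0.296, and all 10 kept a higher mean under every alternative listed below.

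**Figure D3:**
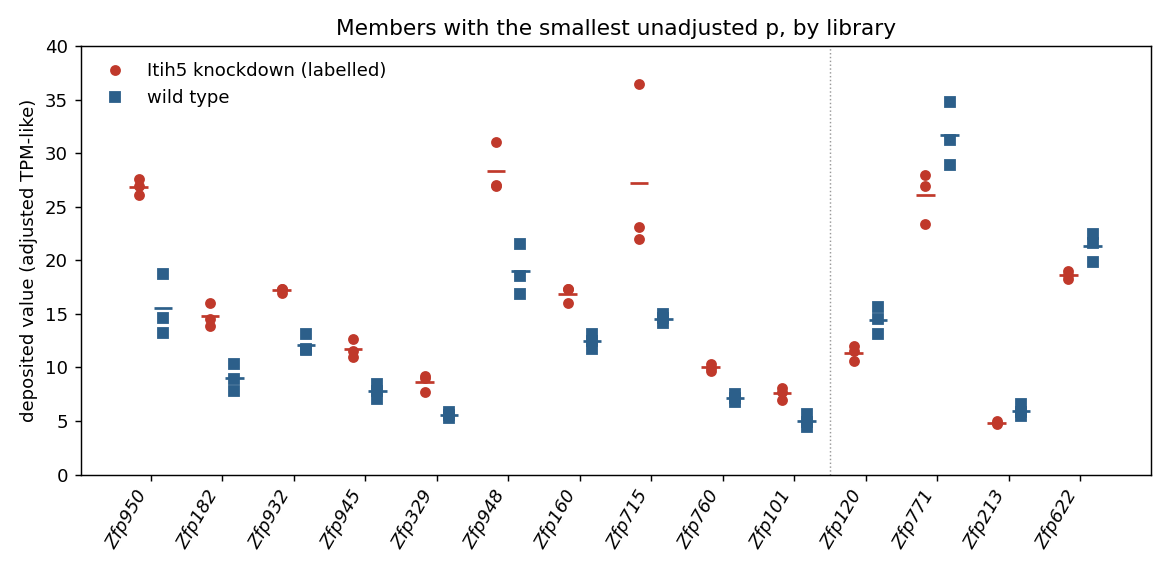
Deposited values by library for the 10 members with the smallest p among those higher in the libraries labelled knockdown (left of the dotted line) and 4 of those lower (right), circles for the libraries labelled knockdown and squares for wild type, bars for the group means. In the 14 genes shown the circles and squares do not overlap, and Zfp715 has 1 library labelled knockdown far above the rest.

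Lower members were few and their differences were small. Zfp120, a KRAB gene with 9 finger matches on the minus strand of chromosome 2 at 150114406 to 150136708, was at 10.6, 11.5 and 11.97 in the libraries labelled knockdown, against 15.6, 13.1 and 14.5 in wild type (log2 difference -0.32, SE 0.11, limma adjusted p = 0.300). Zfp771 was at 23.4, 27.9 and 26.9 in the libraries labelled knockdown, against 31.3, 34.8 and 28.9 in wild type (log2 difference -0.27, SE 0.11). Zfp622, whose yeast relative acts in maturation of the large ribosomal subunit, was at 18.6, 18.3 and 18.96 in the libraries labelled knockdown, against 22.5, 21.6 and 19.9 in wild type (log2 difference -0.18, SE 0.09). Those 3 did not overlap between the groups, but in all 3 the gap was smaller than the largest rounding step. Zfp503 had the most negative log2 difference, -0.61, with the widest error (SE 0.30), and overlapped at 3.69, 4.78 and 8.98 in the libraries labelled knockdown, against 7.81, 7.49 and 11.96 in wild type. The other 6 of the 10 were Zfp213 (log2 difference -0.25), Zfp35 (-0.17), Zfp119a (-0.24), Zfp334 (-0.21), Zfp105 (-0.18) and Zfp469 (-0.29).

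For Zfp950 and Zfp120, the members with the smallest p in each direction, the promoters are shown. The single finger units printed above are alike in these genes (91.7% identical) and their directions are not, although neither was called. Other fingers of the pair were not compared, and whether the promoters bear on the directions was not tested. Given are the 250 bases before the RefSeq start (GRCm38.p6), in the direction of each gene, with capitals for CCAAT (or ATTGG, the same on the other strand) and for the ETS core CCGGAAG on either strand. The first lies at chr19:61140841-61141090 and the second at chr2:150136679-150136928, both on the minus strand.
Zfp950: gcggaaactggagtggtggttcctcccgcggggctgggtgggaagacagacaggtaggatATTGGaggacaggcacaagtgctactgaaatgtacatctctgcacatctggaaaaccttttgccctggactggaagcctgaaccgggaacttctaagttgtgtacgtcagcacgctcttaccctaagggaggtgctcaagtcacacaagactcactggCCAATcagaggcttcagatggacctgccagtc
Zfp120: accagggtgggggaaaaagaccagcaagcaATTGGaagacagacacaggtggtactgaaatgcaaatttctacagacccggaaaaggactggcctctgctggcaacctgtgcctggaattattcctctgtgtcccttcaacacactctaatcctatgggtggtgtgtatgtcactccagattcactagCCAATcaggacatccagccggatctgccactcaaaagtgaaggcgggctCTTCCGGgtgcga

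Both hold CCAAT 2 times, and that of Zfp120 also holds the ETS core 1 time. The 2 windows do not lie alike in the GENCODE annotation. The span of Zfp120 ends at 150136708, within its window, so the last bases printed, with the ETS core, lie inside the gene. The window of Zfp950 begins next to the end of its span at 61140840. RefSeq start regions of 300 bases were found for 221 of the 266 members, 269 regions in all. On either strand CCAAT was found in 48.3% of them, GGGCGG (the GC box) in 47.6% and CCGGAAG in 19.7%. The shares in all 32851 start regions, which also include those of non-coding genes, were 37.4%, 35.7% and 8.86%. Such a match is a description of letters and not a bound site.

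Split by level, the median stood above that of all genes in each of the 3 classes, and it was nearest to zero at the highest levels. Of the 153 members at 3 to under 10, 121 had a higher mean and the median log2 difference was 0.13, against 0.05 for all 3337 genes of that level. At an unadjusted p under 0.05, 21 of them were higher (13.7%, where 11.0% of all genes of that level were) and 0 were lower, where 5.0% were. The groups did not overlap for 36 that were higher and 2 that were lower, or 23.5% and 1.31%, against 14.9% and 5.87% of the genes of that level. Of the 102 members at 10 to under 30, 72 had a higher mean, with a median of 0.13, against 0.01 for all 4417 genes of that level. In this class 29 members were higher at that p (28.4%, against 9.51% of its genes) and 2 were lower (1.96%, against 6.97%). The groups did not overlap for 35 that were higher and 4 that were lower, or 34.3% and 3.92%, against 13.7% and 10.1%. The 11 members at 30 or more had 6 higher and 5 lower means, a median of 0.01 against -0.05 for all 4325 genes, and 2 higher and 0 lower at that p, where 5.73% and 8.92% of the genes of that level were. The groups did not overlap for 2 that were higher and 0 that were lower, where 7.54% and 16.0% of those genes were apart. Members at 3 to under 10 span few rounding steps, so their values are the coarsest.

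**Figure D4:**
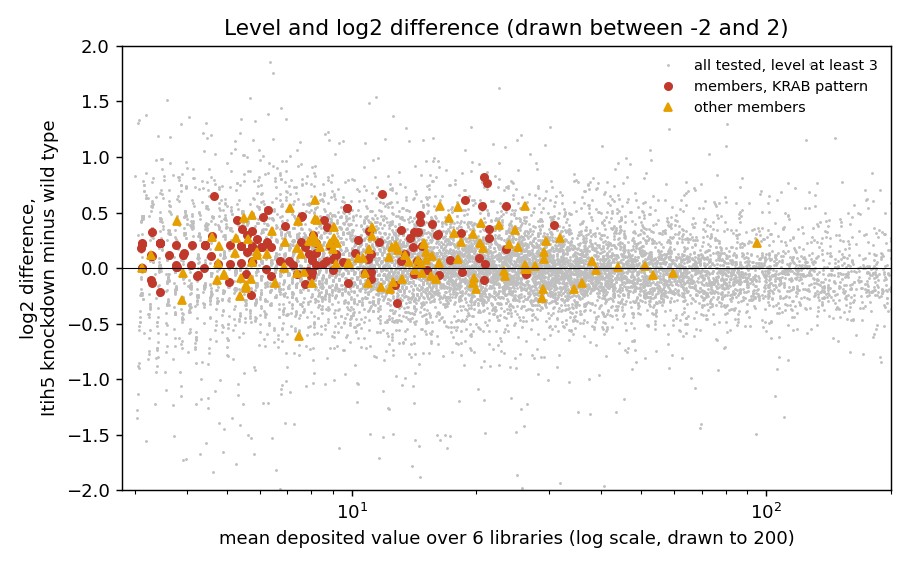
Log2 difference (labelled knockdown minus wild type) against the mean deposited value on a log axis, for members with a KRAB match (circles), other members (triangles) and all tested genes at 3 or more (grey). Members between 10 and 30 lie mostly above zero, and the 11 members at 30 or more lie on both sides of it.

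The 8 most abundant members had log2 differences between -0.13 and 0.23. Zfp207, which encodes a microtubule-binding protein of the mitotic spindle, was the most abundant, at 97.3, 101.2 and 109.8 in the libraries labelled knockdown, against 95.7, 90.1 and 77.3 in wild type. Its groups did not overlap (log2 difference 0.23, 95% interval -0.03 to 0.49, limma adjusted p = 0.361). Zfp706 was at 61.5, 59.7 and 54.9 in the libraries labelled knockdown, against 58.6, 61.1 and 62.3 in wild type. Of the 50-base stretches of its coding sequence, however, 92.2% also occur elsewhere, mostly in Gm10193. The ubiquitin ligase gene Zfp91 had a log2 difference of -0.06 (95% interval -0.35 to 0.23). Zfp637 had 0.01, Zfp740 0.06 and Zfp146 -0.13, all with overlapping groups.

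Genes with a known role in heart or mesenchymal cells had log2 differences between -0.14 and 0.23, with 1 of 6 higher and 0 lower at an unadjusted p under 0.05, where 8.29% and 6.55% of all tested genes were. Zfp260, which in rat heart muscle cells works with GATA4, was at 47.8, 57.8 and 48.9 in the libraries labelled knockdown, against 49.8, 50.7 and 51.4 in wild type (log2 difference 0.02, 95% interval -0.22 to 0.25). Zfp106, an RNA-binding protein gene needed by motor neurons and muscle, was at 49.7, 37.5 and 29.9 in the libraries labelled knockdown, against 37.1, 34.7 and 45.1 in wild type. The spread within each group was larger than the difference. The fat cell regulators Zfp423 (log2 difference 0.01), Zfp516 (-0.14) and Zfp521 (-0.10) overlapped between the groups. Zfp638, an RNA-binding protein gene of fat cell differentiation, was at 22.0, 22.2 and 21.96 in the libraries labelled knockdown, against 17.6, 19.7 and 18.9 in wild type (log2 difference 0.23, SE 0.09, limma adjusted p = 0.314).

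Of 8 listed genes for imprint and retroelement control, 6 were members, and 3 of these were higher and 0 lower at an unadjusted p under 0.05, where 8.29% and 6.55% of all tested genes were. Zfp57, which protects DNA methylation at imprinted loci, was at 20.7, 22.2 and 24.95 in the libraries labelled knockdown, against 13.6, 20.7 and 10.6 in wild type (log2 difference 0.61, SE 0.22, limma adjusted p = 0.308). The groups nearly touched, the library labelled knockdown replicate 1 being at 20.73 and wild-type replicate 2 at 20.66. Zfp445, which shares that role, was at 36.8, 32.8 and 34.9 in the libraries labelled knockdown, against 24.4, 33.9 and 22.3 in wild type, and overlapped through the same wild-type library. Zfp932, which binds endogenous retroviruses in mouse cells together with Gm15446, was at 17.3, 17.4 and 16.97 in the libraries labelled knockdown, against 11.7, 13.1 and 11.6 in wild type (log2 difference 0.47, SE 0.09). Gm15446, not a member by its name and named because it shares sequence with Zfp932, was at 10.3, 9.64 and 9.98 in the libraries labelled knockdown, against 6.82, 8.45 and 6.21 in wild type. The retroviral silencer gene Zfp809 was at -0.05, Zfp568 at 0.20 and Zfp961 at 0.03, all log2 differences with overlapping groups.

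Genes acting on RNA, ribosomes or ubiquitin had 9 members, of which 1 (11.1%) was higher and 0 lower at an unadjusted p under 0.05, near the 8.29% and 6.55% of all tested genes. That one was Zfp346, which encodes a double-stranded RNA-binding protein, at 13.8, 11.55 and 12.98 in the libraries labelled knockdown, against 10.7, 8.39 and 9.84 in wild type (log2 difference 0.37, SE 0.12). The splicing factor gene Zfp326 (log2 difference 0.22, SE 0.09) did not overlap. Zfp598, whose protein marks collided ribosomes with ubiquitin, had 0.25 (SE 0.14) and overlapped, and Zfp830 and Zfp330 both had -0.01. The median of these 9 was -0.01.

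Genes for general transcription and chromatin had 12 members, with 2 (16.7%) higher and 0 lower at that p, where 8.29% and 6.55% of all tested genes were, and a median log2 difference of 0.13. Zfp384 was at 35.8, 33.7 and 34.9 in the libraries labelled knockdown, against 28.3, 30.97 and 26.9 in wild type (log2 difference 0.27, SE 0.09). Of the 50-base stretches of its coding sequence, however, 29.7% occur elsewhere, mostly in Gm11405. Zfp263 was at 19.7, 20.3 and 19.96 in the libraries labelled knockdown, against 17.6, 17.8 and 15.2 in wild type (log2 difference 0.23, SE 0.10). Zfp644, whose protein binds the histone methyltransferase G9a, had a log2 difference of 0.17 without overlap. Zfp143, a factor of small nuclear RNA promoters, had 0.09, Zfp410, which controls Chd4, 0.02, Zfp335 0.28, Zfp827 0.26 and Zfp292 0.19. Zfp281 (-0.13), Zfp687 (-0.13), Zfp217 (-0.13) and Zfp148 (-0.10) had lower means, and of the genes in these last 2 sentences all overlapped between the groups.

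Both KRAB members and the others had a median above zero. Of the 141 with the KRAB pattern, 113 had a higher mean, with a median log2 difference of 0.13, and 32 (22.7%) were higher and 1 was lower at an unadjusted p under 0.05. Of the 123 without it, 86 had a higher mean, the median was 0.10, and 20 (16.3%) were higher and 1 was lower. Of all tested genes at a level of at least 3, 8.56% were higher and 7.13% lower at that p. At 10 to under 30 the higher shares were 40.9% of 44 KRAB members and 18.97% of 58 others, against 9.51% of all genes of that level. At 3 to under 10 they were 13.5% of 96 and 14.5% of 55, near the 11.0% of all genes of that level. The difference between the classes was not tested. The median log2 difference was -0.02 for the 5 members with no finger match, of which 1 had a higher mean, 0.07 for the 51 members with 1 to 5 fingers, 0.12 for 78 with 6 to 10, 0.17 for 89 with 11 to 15 and 0.12 for 41 with 16 or more. The 44 members that share at least 20% of their coding 50-base stretches had a median of 0.18, and the 220 that share less had 0.12, both on the deposited scale. The part of shared sequence in the differences was not tested.

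Zinc finger genes outside the Zfp series were compared at the same level of at least 3. There were 32 other genes with the KRAB pattern, and 25 had a higher mean, with a median of 0.09. At an unadjusted p under 0.05, 9 of them (28.1%) were higher and 0 lower, where 8.56% and 7.13% of all genes at that level were. Of 124 other genes with at least 3 fingers and no KRAB match, 78 had a higher mean, with a median of 0.04, and 14 (11.3%) were higher and 3 lower at that p. Of 51 Zbtb, Zscan and Zkscan genes, 32 had a higher mean, with a median of 0.04, and 8 (15.7%) were higher and 1 lower at that p. The differences between these families and the members were not tested.

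**Figure D5:**
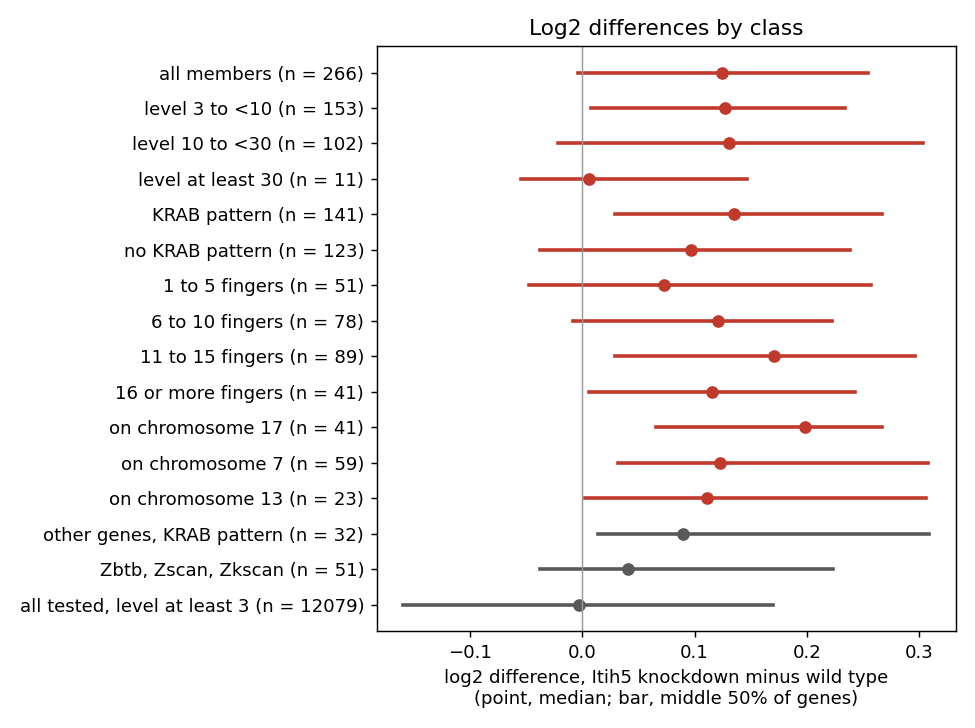
Log2 difference (labelled knockdown minus wild type) for classes of members and, in grey, for other genes. Points are medians and bars the middle 50% of genes; the medians of the member classes run from 0.01 at the highest levels to 0.20 on chromosome 17, and that of all tested genes at 3 or more is 0.00.

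The co-repressor genes whose products KRAB proteins use were centred on zero. The list held 30 symbols, of which 29 were tested. At an unadjusted p under 0.05, 3 (10.3%) were higher and 1 (3.45%) was lower, near the 8.29% and 6.55% of all tested genes. The median log2 difference was 0.00, and 14 of the means were lower. Trim28 was at 64.2, 78.0 and 85.8 in the libraries labelled knockdown, against 85.95, 86.4 and 84.97 in wild type (log2 difference -0.18, SE 0.12, limma adjusted p = 0.467), with the library labelled knockdown replicate 1 lowest. Setdb1 had 0.13 (SE 0.10). The heterochromatin protein gene Cbx3 was at 59.3, 56.8 and 56.9 in the libraries labelled knockdown, against 70.4, 64.8 and 72.4 in wild type (log2 difference -0.26, SE 0.09). Trim24, which encodes a relative of TRIM28, was at 41.3, 30.8 and 31.9 in the libraries labelled knockdown, against 22.4, 26.3 and 21.4 in wild type (log2 difference 0.54, SE 0.14). Tasor, which encodes the scaffold of the HUSH silencing complex, had 0.42 (SE 0.12), and Morc2a, an ATPase gene that works with that complex, 0.25 (SE 0.10).

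By position, 96 of the 265 members with a position in the annotation lay in 10 clusters of at least 5 members, joined where the gap was at most 500000 bases. The largest was on chromosome 17 at 21008903 to 23599487 (mm10), from Zfp160 to Zfp13, with 22 members of which 20 match the KRAB pattern. In it, 19 members had a higher mean, the median log2 difference was 0.20, and 8 were higher at an unadjusted p under 0.05, among them Zfp945, Zfp948, Zfp160 and Zfp760. For this and the other clusters, the share of all tested genes higher at that p is 8.29%. Its lower member with the smallest p was Zfp213. A second cluster on that chromosome, at 32765496 to 33631779, had 11 members, 9 with a higher mean and 3 higher at that p. On chromosome 7, the 13 members at 29768552 to 30169750 had a median of 0.20 with 10 higher means. A cluster of 13 KRAB members on chromosome 13 at 67194506 to 67827002, in contrast, had 8 higher means, a median of 0.03 and 1 member higher at that p.

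Chromosome 17, singled out after its values were seen, held 41 members in all, and 13 of them (31.7%) were higher at that p, where 10.5% of its 543 other genes at a level of at least 3 were. On chromosome 7 the share was 18.6% of 59 members, against 8.01% of 849 other genes, and on chromosome 13 it was 26.1% of 23 members, against 8.92% of 415 other genes. Members of a cluster are neighbours with similar sequences and are no independent observations. Whether the clusters differ was not tested.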

How the data were processed

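The authors deposited 1 table of 16205 rows with a score per gene and library, TPM-like values adjusted between libraries in a way that the labels do not state. Per the submitters' processing notes the build is mm10. Aligner and annotation were not given in the sources used here. Of rows sharing a symbol the highest was kept (6 left out). The 14025 genes whose mean reached 1 were fitted on the log2(value + 1) scale with limma 3.58.1 (trend, Benjamini-Hochberg, no covariate) in R 4.3.3; the fit was tested on simulated data. The 16 alternatives were other pseudocounts, filters on low values, no trend, median-ratio scaling, mitochondrial genes left out, the replicate block, division by the rounding step, a heart muscle covariate and each library left out; division by the step and the covariate were added after the values were seen.

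Members, gene lists and classes were chosen with earlier results of these data known. Genes named are the 10 with the smallest p in each direction, the 8 most abundant, 4 role lists, 6 co-repressor genes and Itih5. Also named are the 3 rows on each side of the limit, with Zfp7 added for its tie. Others are said to be chosen later. KRAB boxes and fingers (cysteines 2 to 4 residues apart, a loop of 12, histidines 2 to 6 apart) were sought in translated GENCODE M21 coding sequences. Proteins from RefSeq were not used here. Low values lay within 0.15 steps of whole multiples for 97.3% to 100% of values under 3.5 steps.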

Additional observations from a re-analysis of the deposited data

How the results depend on the processing

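The number of members called stayed at 0 in each direction under all 16 alternatives. Of all tested genes, 22 were called after division by the rounding step. There were 13 called without the library labelled knockdown replicate 3, 2 without wild-type replicate 2, and 0 in the other alternatives. The distance between the median of the members and that of all genes stayed between 0.11 and 0.15. Dividing each library by its rounding step gave a median of -0.0081, with 14 members higher and 9 lower at an unadjusted p under 0.05. These were 5.26% and 3.38%, against 2.83% and 9.24% of all genes. The alternative itself lowers libraries with a large step. Leaving out mitochondrial genes gave a median of 0.17, against 0.05 for all genes. With them left out, 65 members were higher (24.4%, against 10.6% of all genes) and 1 lower (0.376%, against 4.39%). The replicate block and the heart muscle covariate left the median at 0.12. With the block 37 members were higher (13.9%, against 7.41% of all genes) and 1 lower (0.376%, against 5.45%). With the covariate 25 were higher (9.40%, against 5.30%) and 1 lower (0.376%, against 2.08%). The cause was not tested. The deviations of same-numbered libraries correlated at 0.06, 0.06 and 0.14, and those of differently numbered ones at -0.11 to 0.06. For each library labelled knockdown, the same-numbered wild-type library had the highest value. The numbers in the labels do not by themselves pair animals, so they were not taken as pairs in the main fit. Leaving out 1 library gave 27 to 48 higher members, 0 to 4 lower ones and medians from 0.12 to 0.16. The count of higher members was lowest without wild-type replicate 1 (27, or 10.2%, against 4.70% of all genes) or 3 (28, or 10.5%, against 4.56%). The lower count was 4 without the library labelled knockdown replicate 3 (1.50%, against 8.82% of all genes). It was 1 without the library labelled knockdown replicate 1 or wild-type replicate 2 or 3, and 0 without wild-type replicate 1. Of 70 named genes followed through the alternatives, none called in the main fit, between 0 and 11 changed sign in an alternative. Rounding limits members at 3 to under 10 most.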
